A study of Rattus norvegicus with 6 samples.

Results

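Chloride secretion genes were examined in enterocyte nuclei of the rat colon. The genes were Cftr, Ano1, Slc12a2, Kcnq1, Kcne3, Kcnk5 and Clcn2, which encode transporters and channels of this pathway; 6 of these 7 were among the 17388 genes of the tables, and Clcn2 was not analysed here. The group was chosen by its measured levels in these same rats, with Cftr lower and Kcnk5 higher in sham and PL8177 enterocytes than in placebo enterocytes, so differences from placebo are described below without a test. Only comparisons that played no part in that choice were tested: PL8177 against sham, nuclei of the crypt against those of the surface within each rat, and enterocytes against T cells.

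The colon secretes fluid by moving chloride across its epithelium. The cotransporter NKCC1, encoded by Slc12a2, loads chloride into the cell from the blood side, and chloride leaves into the lumen through CFTR, which opens on cyclic AMP signalling, or through calcium-activated channels such as the one encoded by Ano1. Basolateral potassium channels, among them KCNQ1 with its subunit KCNE3, and the two-pore-domain channel encoded by Kcnk5, carry potassium out again and so keep the electrical drive for chloride exit. In the normal colon CFTR is known mainly from the crypts, whereas absorbing cells face the lumen at the surface.

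The promoters of the 2 genes that had been picked are shown because they went opposite ways in the same nuclei. They were taken from a set of RefSeq promoters (assembly GRCr8) prepared beforehand, which held 5 of the 6 genes and not Kcnq1. The windows run 5′ to 3′ from 250 bases before to 50 bases after the annotated start. The Cftr window lies at chr4:47527379-47527678, plus strand, and the Kcnk5 window at chr15:4171375-4171674, plus strand. Capitals mark a variant of the cyclic AMP response element, TGACATCA.
Cftr: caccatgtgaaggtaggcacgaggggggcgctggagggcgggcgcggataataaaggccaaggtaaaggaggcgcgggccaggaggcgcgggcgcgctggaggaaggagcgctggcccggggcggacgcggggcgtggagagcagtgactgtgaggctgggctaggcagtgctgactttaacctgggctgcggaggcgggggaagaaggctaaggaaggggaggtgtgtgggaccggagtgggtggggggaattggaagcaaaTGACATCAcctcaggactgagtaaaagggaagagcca
Kcnk5: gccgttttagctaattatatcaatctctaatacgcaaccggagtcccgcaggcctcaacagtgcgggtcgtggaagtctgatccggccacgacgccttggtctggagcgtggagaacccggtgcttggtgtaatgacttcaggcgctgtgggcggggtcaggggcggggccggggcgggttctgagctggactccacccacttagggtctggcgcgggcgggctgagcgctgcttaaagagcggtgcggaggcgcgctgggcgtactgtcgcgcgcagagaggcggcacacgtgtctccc
Of the 5 windows, searched on both strands, the Cftr window alone held TGACATCA, which lay at bases 264 to 271 and began 14 bases into the transcript, counting the start as 1. Of all 33469 promoters in the set, 4.34% held it. The full element TGACGTCA (1.83% of promoters) and its 5-base core TGACG (21.2%, which counts the full element too) were in none of the 5. A match in these letters is not a binding site, and the data hold no measure of factor binding.

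The nuclei were isolated from frozen colon of 9 rats (male, Wistar), with 3 rats in each of 3 treatments, and their ages are not given in the sources used here. For 3 days the placebo and PL8177 rats were given 5% dextran sulfate sodium (DSS) to drink, a polymer that injures the colon epithelium, and they were then dosed 2 times a day for 4 days, the former with capsules that held no drug and the latter with 50 µg of PL8177, an agonist of the melanocortin-1 receptor. Sham rats drank water with no DSS. The measure is the number of unique molecular identifiers (UMIs) of a gene in a nucleus, a UMI being the tag of a single captured RNA molecule, and the cell types are those the study assigned. Rats are known only from the tags at the start of the nucleus names (GR12, GR13 and GR15 for sham, GR22, GR23 and GR24 for placebo, GR41, GR43 and GR44 for PL8177), since the labels do not list them.

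The tables held 8782 enterocyte nuclei, 304 to 1531 per rat, with 319125 to 4123319 UMIs per rat, and 1018 T cell nuclei, 19 to 685 per rat. Of 9790 barcodes, 10 occurred in more than 1 rat. Enterocyte nuclei carried 142 to 318 UMIs of 14 enterocyte markers per 10000 UMIs, against 0.156 to 0.846 of 13 T cell markers. T cell nuclei carried 24.7 to 56.8 UMIs of T cell markers in 8 rats, but 16.5 to 87.7 of enterocyte markers too. In the PL8177 rats enterocyte markers (51.9 to 87.7) exceeded T cell markers (24.7 to 39.6). Outside placebo rat GR23, 214 of the 333 T cell nuclei held T cell marker UMIs and no more enterocyte marker UMIs than those. Leaving out GR23 therefore does not give a background free of enterocyte RNA. In placebo rat GR23, the 685 nuclei labelled T cell carried 2.20 UMIs of T cell markers and 186 of enterocyte markers, against their label, so the tests against T cells are given with and without that rat. Depth also differed within treatments: rat GR12 gave 77.1% of the sham enterocyte UMIs, GR22 gave 65.4% of the placebo ones and GR43 61.7% of the PL8177 ones. For that reason levels are given per rat, as UMIs of the gene per 10000 UMIs of all genes, and averaged over rats. These levels depend on gene length and intron content, so they compare samples and not genes.

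Cftr, whose product is the apical chloride channel that protein kinase A activates downstream of cyclic AMP, was lowest in sham enterocytes and highest in placebo enterocytes. Its level was 0.581, 0.379 and 0.404 UMIs per 10000 in the sham rats GR12, GR13 and GR15, and 2.14, 3.32 and 2.02 in the placebo rats GR22, GR23 and GR24. In the PL8177 rats GR41, GR43 and GR44 it was 0.554, 1.01 and 0.546. Every placebo rat stood above every other rat, with a mean of 2.49 ± 0.719 (SD, n = 3) that was 5.49 times the sham mean (0.455 ± 0.110) and 3.55 times the PL8177 mean (0.704 ± 0.267). Sham and PL8177 overlapped. On the log2 scale the fitted difference of the levels from placebo was -2.24 (SE 0.309) in sham and -1.62 (SE 0.292) in PL8177, given as a description. Over all 9424 genes that passed the filter on low counts, 7.01% had every sham and every PL8177 rat below every placebo rat, and 1.9% had all of them above; the same 3 placebo rats serve both comparisons.

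**Figure D1:**
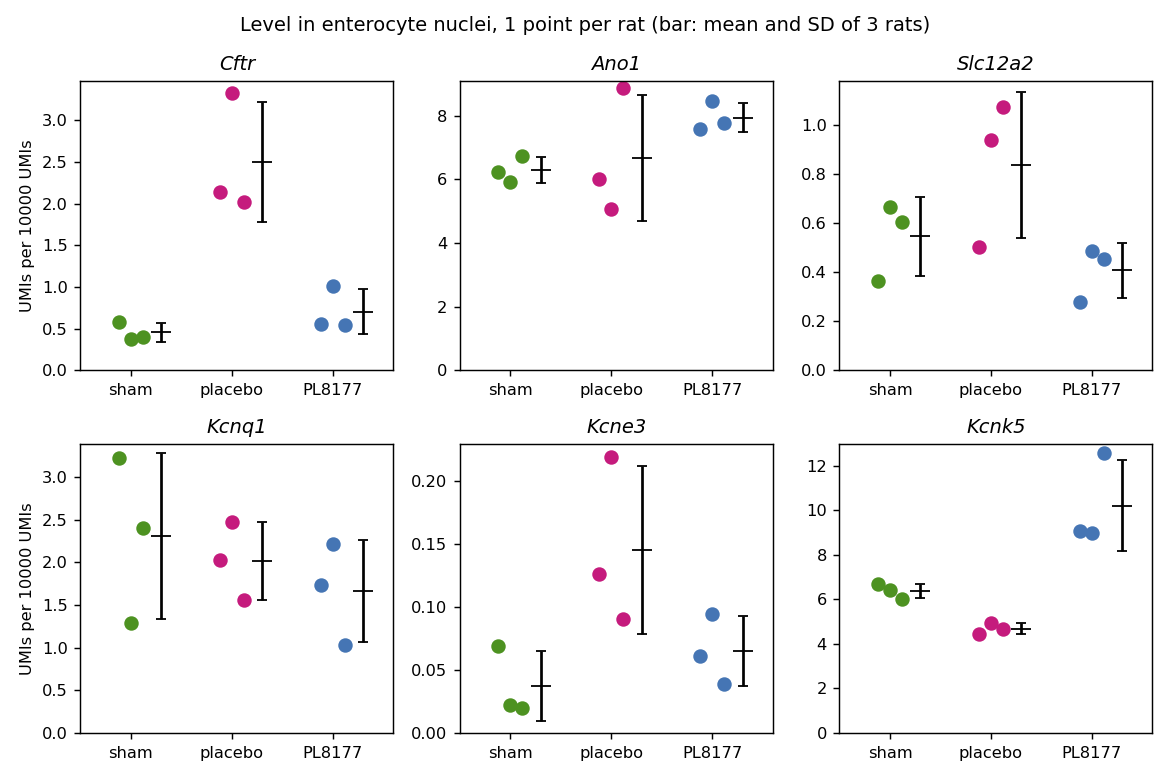
Level of each gene in enterocyte nuclei, in UMIs per 10000 UMIs, with 1 point per rat and a bar for the mean and SD of the 3 rats of a treatment. The placebo points of Cftr lie at 2.02 to 3.32, above all others, and the PL8177 points of Kcnk5 lie at 8.97 to 12.6, also above all others.

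The share of nuclei with any Cftr UMI differed between rats of a treatment as well. It rose with median depth among the sham and among the PL8177 rats. It did not in placebo, where GR23 (median 612 UMIs) stood above GR24 (970 UMIs). The share was 13.02%, 1.93% and 2.26% for the sham rats in the order above, 32.4%, 21.7% and 17.97% for the placebo rats, and 7.58%, 16.9% and 3.69% for the PL8177 rats. The placebo rats were the highest 3 of the 9. With every nucleus thinned to 300 UMIs, which evens out depth, the shares became 2.81%, 1.03% and 1.15% for sham, 8.65%, 9.63% and 8.75% for placebo, with PL8177 at 2.32%, 4.85% and 2.03%. Pooled over rats, 153 of 2464 sham nuclei held a Cftr UMI (6.21%, exact 95% interval 5.29% to 7.24%), 737 of 2959 placebo nuclei (24.9%, 23.4% to 26.5%) and 365 of 3359 PL8177 nuclei (10.9%, 9.83% to 11.97%). These intervals cover counting error only and not the spread between rats; GR12 alone held 121 of the 153 sham nuclei and GR43 held 258 of the 365 PL8177 nuclei.

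T cell nuclei were set beside these shares as a background, and whether T cells express Cftr themselves was not tested. Thinned in the same way, 3.62% of the T cell nuclei without rat GR23 still held a Cftr UMI, and 2.83% with it, at median depths of 754 and 744.5 UMIs before thinning, against 1085 in all enterocyte nuclei. Per rat the thinned share ran from 0 in 4 rats to 5.48% in GR12, on 14 to 83 nuclei outside GR23, so that this background is coarse. By this thinned share, all placebo rats stood above the whole of that range, and all sham and PL8177 rats lay within it. By level, over the genes shared by all tables, Cftr was lower in enterocyte than T cell nuclei in placebo rats GR22 and GR24. The levels were 2.21 against 5.59 in GR22 and 2.09 against 2.90 in GR24. Only GR23, whose T cell label its markers contradict, went the other way among placebo rats (3.41 against 0.706). Whether Cftr in placebo enterocytes exceeds this background therefore depends on the measure. A share within the background was not read as expression. Outside GR23, in the 3 rats with most T cell nuclei that held a Cftr UMI, those nuclei were deeper than the other T cell nuclei. Within each of these rats they also had lower T cell and higher crypt marker levels. Cell cycle genes, which are part of the crypt list, were higher in them in each of these rats too. Enterocyte markers, pooled over the rats without GR23, were lower in them. The values are given with the cell types below.

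Ano1, whose product is a calcium-activated chloride channel, was captured far more often and varied less with treatment. It read 6.22, 5.92 and 6.74 UMIs per 10000 in the sham rats, 6.01, 5.08 and 8.88 in the placebo rats, and 7.59, 8.46 and 7.77 in the PL8177 rats. The placebo rats spanned the range of all others, and the PL8177 rats lay above the sham rats. Ano1 is also a marker of interstitial cells of Cajal, the pacemaker cells of the gut wall. The 6 markers listed for those cells and smooth muscle summed to 1.28 to 2.48 UMIs per 10000 in sham, 1.38 to 2.54 in placebo and 0.749 to 1.65 in PL8177 enterocyte nuclei, and Kit, which defines them, had 13, 13 and 3 UMIs in the 3 treatments.

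Slc12a2, the basolateral loader of chloride, was sparse. It gave 0.364, 0.668 and 0.606 UMIs per 10000 in the sham rats, 0.503, 0.940 and 1.07 in the placebo rats and 0.280, 0.487 and 0.455 in the PL8177 rats. All PL8177 rats were below all placebo rats, and sham lay in between with overlap on both sides. The fitted difference from placebo was -0.49 (SE 0.378) in sham and -0.86 (SE 0.366) in PL8177.

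Of the potassium channel genes, Kcnq1, the pore of the cyclic AMP-regulated basolateral channel, did not separate the treatments. Its levels were 3.23, 1.29 and 2.40 UMIs per 10000 for the sham rats and 2.03, 2.48 and 1.55 for the placebo rats, with PL8177 at 1.74, 2.22 and 1.03. Kcne3, the subunit that holds that pore open, was close to the limit of detection, with totals of 24 UMIs for sham, 73 for placebo and 53 for PL8177. Per rat it read 0.0691, 0.0223 and 0.0202 UMIs per 10000 for the sham rats and 0.126, 0.219 and 0.0904 for the placebo rats, with PL8177 at 0.0615, 0.0946 and 0.0390. The lower 2 sham rats had 1 UMI each. Sham lay below placebo, and PL8177 overlapped both.

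Kcnk5, which encodes the acid-sensitive potassium channel TASK-2, was lowest in placebo, where Cftr was highest, and was highest in PL8177. Levels were 6.68, 6.44 and 6.04 UMIs per 10000 in the sham rats, 4.43, 4.92 and 4.68 in the placebo rats, and 9.09, 8.97 and 12.6 in the PL8177 rats. No treatment overlapped another. The PL8177 mean of 10.2 ± 2.06 was 2.18 times the placebo mean (4.68 ± 0.244) and 1.60 times the sham mean (6.39 ± 0.327), and the fitted log2 difference from placebo was 0.61 (SE 0.227) in sham and 1.31 (SE 0.229) in PL8177. With nuclei thinned to 300 UMIs, 16.2% of sham, 13.5% of placebo and 23.0% of PL8177 nuclei held a Kcnk5 UMI. Of T cell nuclei 7.24% did without rat GR23 and 19.5% with it, since 25.2% of the nuclei labelled T cell in GR23 did.

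Over all genes, 5.36% had every sham rat above every placebo rat and 14.3% every sham rat below; for PL8177 against placebo the shares were 4.7% above and 14.1% below. Of the 6 genes, Kcnk5 lay above placebo in both comparisons, Cftr below in both, Kcne3 below in sham only and Slc12a2 below in PL8177 only, where "only" states which rats overlapped and not a tested difference. In neither comparison did edgeR call a single one of 9424 genes (0%) with its Benjamini-Hochberg adjusted p under 0.05. Before adjustment 1172 genes passed 0.05 for sham and 871 for PL8177, while DESeq2 called 107 genes (1.74%) and 63 genes (1.09%).

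Markers of the surface epithelium had their lowest mean in placebo, but the rats overlapped. The 13 surface markers found summed to 298 ± 74.6 UMIs per 10000 in sham, 203 ± 59.2 in placebo and 269 ± 38.1 in PL8177 nuclei (SD, n = 3), and the 20 crypt markers to 2.61 ± 0.0667, 2.87 ± 1.16 and 2.54 ± 0.384. Placebo rat GR22, at 271 UMIs of surface markers, lay above the sham rats GR12 and GR15 (251 and 258) and the PL8177 rat GR41 (228). The T cell markers in enterocyte nuclei summed to 0.267 to 0.515 in sham, 0.397 to 0.846 in placebo and 0.156 to 0.364 in PL8177, and the 6 goblet cell markers found to 1.64 to 4.17, 1.42 to 4.04 and 1.63 to 3.36. The part of these markers in the differences from placebo was not tested. The differences were also measured within each side of the epithelium, as defined below, but the markers still differed there: on the crypt side T cell markers summed to 0.776 to 1.06 UMIs per 10000 in placebo rats, above the 0.113 to 0.761 of sham and the 0.0753 to 0.766 of PL8177 rats, and enterocyte markers to 114 to 138 in placebo, 129 to 282 in sham and 142 to 227 in PL8177. On the surface side T cell markers summed to 0.253 to 0.556 in placebo, 0.212 to 0.368 in sham and 0.157 to 0.182 in PL8177, and enterocyte markers to 182 to 239, 198 to 333 and 224 to 273. In crypt side nuclei Cftr differed from placebo by -2.18 (SE 0.350) on the log2 scale in sham and -1.46 (SE 0.305) in PL8177, and in surface side nuclei by -1.60 (SE 0.352) and -1.17 (SE 0.327). Kcnk5 differed by 0.50 (SE 0.295) and 1.17 (SE 0.288) in crypt side nuclei, and by 0.59 (SE 0.236) and 1.30 (SE 0.237) in surface side nuclei.

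PL8177 against sham asks how far the enterocytes of treated colitis rats stood from those of rats that had no DSS, and it is the treatment comparison that was not used to pick the genes. No member passed the test, in a fit in which edgeR called 0 of 9424 genes (0%) after adjustment and 621 before it, and DESeq2 called 4 (0.0425%). Kcnk5 came closest, at a log2 fold change of 0.69 (SE 0.226, unadjusted p = 0.00917, adjusted p = 0.733 by edgeR), and was higher in every PL8177 rat than in every sham rat. Cftr was 0.62 higher (SE 0.304, adjusted p = 0.754 by edgeR) with overlap between the groups. Ano1 was 0.35 higher (SE 0.243, adjusted p = 0.821) and did not overlap. The fold changes of the other 3 were -0.36 (SE 0.381) for Slc12a2, -0.46 (SE 0.316) for Kcnq1 and 0.54 (SE 0.553) for Kcne3, with adjusted p of 0.881, 0.815 and 0.877. The value of Kcne3 ran from 0.18 without rat GR43 to 1.67 without rat GR12. By a two-sided exact permutation test on the levels of 3 against 3 rats, p was 0.1 for Kcnk5 and Ano1, the smallest that this design can give, and 0.3 to 0.4 for the other 4. Of all genes tested, 6.02% had every PL8177 rat above every sham rat and 6.01% every PL8177 rat below, so 2 of 6 genes is a count too small to set apart from that background.

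The wider pathway was followed in 66 further genes (channels, pumps and their kinases, anion transporters, cyclic nucleotide enzymes, receptors, and scaffold or trafficking proteins), of which 62 were in the tables. In PL8177 against sham, 50 of them were tested and none was called, and 1 passed 0.05 before adjustment. Of these, 32 leaned higher and 18 lower, and their median log2 fold change was 0.091, against 0.029 over all genes. At the top stood Abcc4, an exporter of cyclic AMP (1.41, SE 0.833), Wnk4, a kinase upstream of NKCC1 (0.91, SE 0.549) and Kcnn4, a calcium-activated potassium channel (0.73, SE 0.524). At the bottom stood Adcy5, an adenylyl cyclase (-2.91, SE 0.839, unadjusted p = 0.00441), Itpr1, a calcium release channel (-0.60, SE 0.532) and Ano9 (-0.57, SE 0.288). None of these 6 passed, with adjusted p from 0.733 to 0.853 by edgeR, and Adcy5 rested on 93 UMIs in sham and 33 in PL8177.

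Against placebo, the same list is given as a description. For sham the list's median log2 difference was 0.093 against -0.023 over all genes, and for PL8177 0.14 against -0.013. The lowest value in both was that of Slc4a4, a basolateral sodium bicarbonate cotransporter that feeds anion secretion, at -1.72 (SE 0.463) in sham and -1.58 (SE 0.452) in PL8177. Its mean level was 0.868 ± 0.402 UMIs per 10000 in sham, 3.38 ± 1.78 in placebo and 0.968 ± 0.588 in PL8177. The next lowest in sham were Wnk4 at -1.28 (SE 0.556) and Kcnn4 at -1.27 (SE 0.531), and in PL8177 Kcnn4 at -0.54 (SE 0.466) and Atp1b3 at -0.51 (SE 0.325). The highest in sham were Adcy5 at 2.52 (SE 0.851), Slc9a3r1, the scaffold NHERF1 that tethers CFTR at the apical membrane, at 1.52 (SE 0.441) and Ano9 at 0.96 (SE 0.295). In PL8177 Slc9a3r1 stood at 1.29 (SE 0.434) and Ezr at 0.90 (SE 0.228). Mean levels of Slc9a3r1 were 1.84 ± 0.831 UMIs per 10000 for sham, 0.726 ± 0.106 for placebo and 1.55 ± 0.814 for PL8177.

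Enterocyte nuclei were next split by position along the crypt axis, using markers and none of the 6 genes. A nucleus with at least 3 marker UMIs was placed on the crypt side where crypt markers made up more than 0.984% of its crypt and surface marker UMIs, which is their share over all enterocyte nuclei, and on the surface side otherwise. This gave 2038 crypt side and 5747 surface side nuclei, with 997 on neither side, and median depths of 1512 and 1193 UMIs. The split is coarse: 1292 of the crypt side nuclei had exactly 1 crypt marker UMI, and 5406 of the surface side nuclei had none. The crypt side made up 21.0 ± 12.5% of the sided nuclei in sham, 30.4 ± 6.32% in placebo and 25.2 ± 9.57% in PL8177 (SD, n = 3), a difference smaller than the spread between rats.

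Cftr, Slc12a2 and Kcnq1 were higher on the crypt side, Kcnk5 was higher on the surface side, and Ano1 did not pass the test. These were edgeR fits over sums of the 9 rats with the rat as a block, in which 2630 of 5753 genes were called (45.7%; 22.7% higher and 23% lower on the crypt side), so that a call is by itself common in this comparison. Cftr ran from 0.492 to 4.16 UMIs per 10000 on the crypt side (median 1.01) and from 0.212 to 1.34 on the surface side (median 0.360). It was higher on the crypt side in 9 of 9 rats, by 1.63 on the log2 scale (SE 0.123, adjusted p = 1.40e-09 by edgeR), and 5.82% of all genes were higher there in every rat. In some rats the direction rests on few UMIs. Cftr had 3 crypt side UMIs in GR13, 7 in GR15 and 10 in GR44, beside 13, 8 and 19 on the surface side. Slc12a2 had a median of 0.873 on the crypt side (0.370 to 1.08) and 0.330 on the surface side (0.202 to 0.828), a log2 fold change of 0.96 (SE 0.150, adjusted p = 1.97e-05 by edgeR), again in 9 of 9 rats. Its crypt side UMIs were 5 in GR13, 8 in GR15 and 9 in GR23, beside 21, 19 and 4 on the surface side. Kcnq1 had medians of 2.79 (0.828 to 5.02) and 1.36 (0.710 to 2.34), a log2 fold change of 1.02 (SE 0.111, adjusted p = 3.69e-07 by edgeR), and was higher in 8 of 9 rats, the exception being PL8177 rat GR44.

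Kcnk5 leaned the other way. Its median was 6.05 UMIs per 10000 on the crypt side (4.12 to 11.4) and 6.44 on the surface side (4.47 to 13.3), with the surface side higher in 8 of 9 rats (all but sham rat GR13; 3.06% of all genes were higher there in every rat), by a log2 fold change of -0.36 (SE 0.0801, adjusted p = 8.23e-04 by edgeR). With nuclei thinned to 300 UMIs this call was lost, at -0.077 (adjusted p = 0.776), and Cftr, Slc12a2 and Kcnq1 then fell below the filter on low counts. Ano1 was higher on the crypt side in 6 of 9 rats, by 0.20 (SE 0.107, adjusted p = 0.127 by edgeR); it was called in 3 of 19 alternatives, at 0.28 without placebo rat GR24 (adjusted p = 0.0370), 0.29 with the crypt list without cell cycle genes (adjusted p = 0.0346) and 0.35 with at least 10 marker UMIs per nucleus (adjusted p = 0.0133). Kcne3 fell below the filter on low counts. Without that filter it was higher on the crypt side by 1.87 (SE 0.318, adjusted p = 7.86e-08 by edgeR), in a fit with 3679 of 16414 genes called. It had 79 UMIs on the crypt side and 42 on the surface side and was higher on the crypt side in 7 of 9 rats, with no UMI on either side in sham rats GR13 and GR15.

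**Figure D2:**
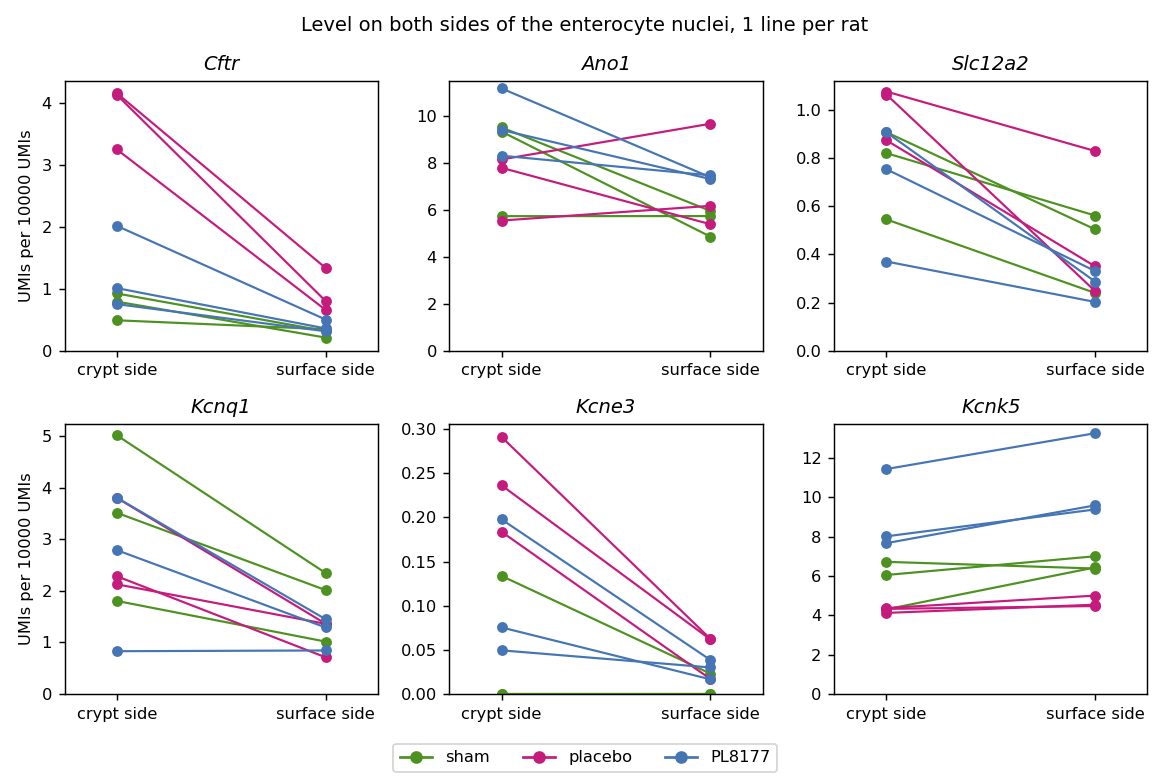
Level of each gene, in UMIs per 10000 UMIs, on the crypt side and the surface side of the enterocyte nuclei, with 1 line per rat coloured by treatment. All 9 lines of Cftr and of Slc12a2 fall from the crypt side to the surface side, and 8 of the 9 lines of Kcnk5 rise.

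A further split ranked the nuclei of each rat by their surface marker level alone and cut them into 3 equal parts. It was added after the first had been seen. It used no crypt marker, and whether the lowest part holds crypt nuclei was not tested. Cftr had a median of 2.05 UMIs per 10000 in the lowest part (0.609 to 9.71), 0.467 in the middle (0.115 to 3.67) and 0.222 in the highest (0.0618 to 0.485). Between the lowest and the highest part the log2 fold change was 3.60 for Cftr (SE 0.223), 2.73 for Kcnq1 (SE 0.144), 1.44 for Slc12a2 (SE 0.212), 0.37 for Ano1 (SE 0.275) and -0.74 for Kcnk5 (SE 0.144). The adjusted p by edgeR ran from 8.27e-11 to 1.37e-04, except for Ano1 (0.234). In that fit 3533 of 4950 genes were called (1848 higher and 1685 lower in the lowest part), so a call is by itself common there. The placebo mean of Cftr was above the other means in each part. In the lowest part Cftr averaged 1.23 ± 0.742 in sham, 7.94 ± 1.55 in placebo and 2.28 ± 1.06 in PL8177, in the middle 0.209 ± 0.0881, 2.36 ± 1.17 and 0.508 ± 0.284, and in the highest 0.217 ± 0.233, 0.367 ± 0.0408 and 0.195 ± 0.0416. Kcnk5 went the other way, with 5.39 ± 0.348, 4.91 ± 1.01 and 7.14 ± 0.479 in the lowest part and 7.24 ± 0.994, 4.78 ± 0.480 and 12.2 ± 2.90 in the highest.

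**Figure D3:**
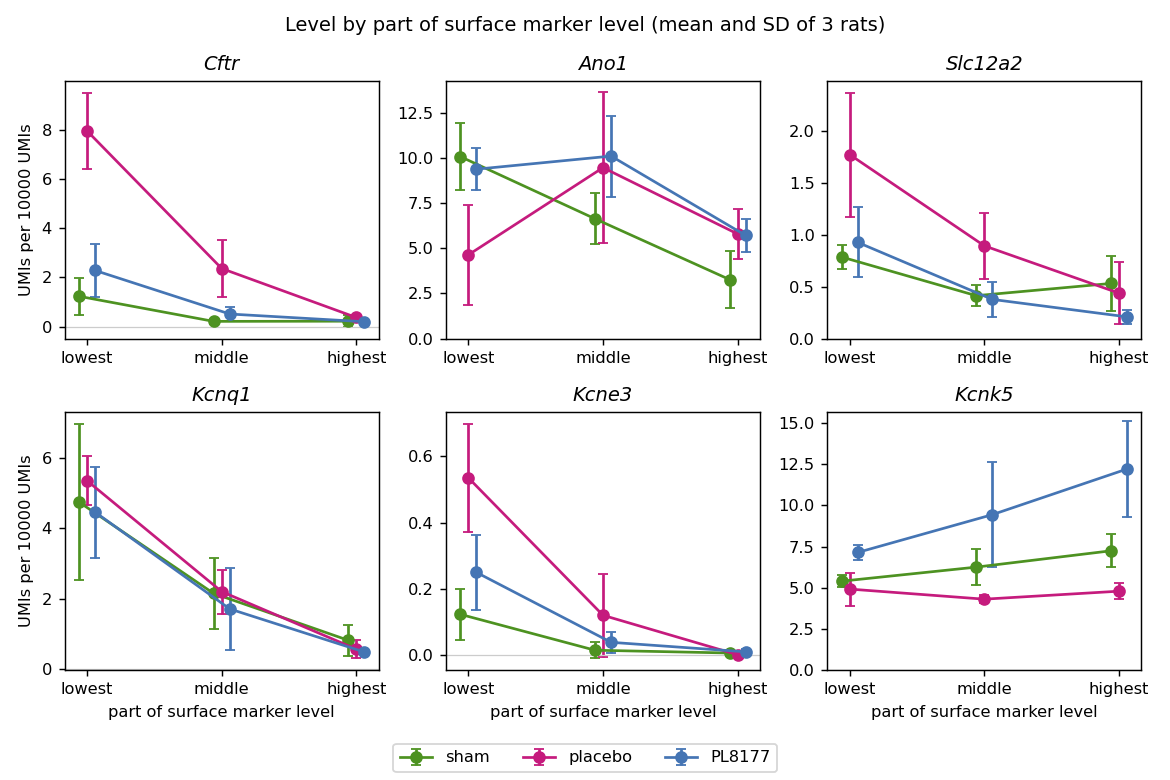
Level of each gene, in UMIs per 10000 UMIs, in the lowest, middle and highest part of surface marker level, as the mean and SD of 3 rats for each treatment. Cftr in placebo falls from 7.94 to 0.367, and Kcnk5 in PL8177 climbs from 7.14 to 12.2.

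Whether the crypt to surface difference itself changed with PL8177 was tested as an interaction between side and treatment. None of 5753 genes was called by edgeR for PL8177 against sham (0%), with 96 passing 0.05 before adjustment and 0 called by DESeq2. The side difference of Cftr was 0.26 larger in PL8177 on the log2 scale (SE 0.363), that of Slc12a2 0.36 larger (SE 0.413) and that of Kcnq1 0.090 larger (SE 0.284). For Ano1 the value was -0.23 (SE 0.256) and for Kcnk5 -0.012 (SE 0.210), and the adjusted p was 1.00 for each of the 5 genes. For Ano1 the level in the lowest part minus that in the highest was 7.85, 3.02 and 9.53 UMIs per 10000 in the sham rats, 1.57, -5.10 and 0.0622 in the placebo rats and 2.19, 6.04 and 2.76 in the PL8177 rats. The placebo rats were below all others, which is given as a description, with no test, since differences from placebo were among those that chose the genes. Between PL8177 and sham the log2 difference of these falls was -1.04 (SE 0.439, adjusted p = 0.868 by edgeR).

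Of the other pathway genes 40 were tested by side. On the crypt side 10 of them (25%) were higher, where 22.7% of all genes were, and on the surface side 15 (37.5%), where 23% of all genes were, with a median log2 fold change of -0.026 against 0.019 over all genes. Of 10 anion transporters and channels tested, 2 were higher on the crypt side, the bicarbonate importers Slc4a4 at 1.86 (SE 0.133) and Slc4a7 at 0.79 (SE 0.116), and 2 on the surface side, Clcn3 at -0.48 (SE 0.114) and Ano10 at -0.41 (SE 0.143). The anion exchangers Slc4a2 and Slc26a6 were not called, at -0.14 (SE 0.103) and -0.0029 (SE 0.169). Of 6 genes of the sodium pump and the kinases upstream of NKCC1, 3 were higher on the crypt side, namely Stk39 (SPAK, which activates NKCC1) at 1.06 (SE 0.135), Wnk1 at 0.26 (SE 0.0920) and the pump subunit Atp1b3 at 0.53 (SE 0.188), and 2 on the surface side, among them the pump subunit Atp1b1 at -0.27 (SE 0.0899). Oxsr1, a kinase related to SPAK, was not called at 0.0022 (SE 0.0925). Of 11 cyclic nucleotide genes, 4 were higher on the crypt side and 3 on the surface side. The former were Pde4d, which degrades cyclic AMP, at 0.90 (SE 0.105), Adcy6, which makes it, at 0.58 (SE 0.0985), and the protein kinase A subunits Prkar2a at 0.73 (SE 0.143) and Prkacb at 0.40 (SE 0.129). The latter were another protein kinase A subunit, Prkar2b, at -0.87 (SE 0.173), and the cyclic GMP genes Prkg2 at -0.41 (SE 0.119) and Pde5a at -0.32 (SE 0.0793), while Prkaca, Prkar1a, Adcy9 and Pde3a were not called.

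Scaffold and trafficking genes were higher on the surface side in 6 of 7 tested and on the crypt side in 0. Stx3, a syntaxin of apical delivery, read -0.75 (SE 0.120), Slc9a3r1 -0.66 (SE 0.127), Ezr, the linker ezrin, -0.54 (SE 0.107), Nedd4l, a ubiquitin ligase, -0.49 (SE 0.0833), and the myosins Myo5b and Myo6 -0.30 (SE 0.0825) and -0.22 (SE 0.0774). Of 6 receptor and calcium genes, the adenosine receptor gene Adora2b at -0.83 (SE 0.131) and the guanylin receptor gene Gucy2c at -0.32 (SE 0.0799) were higher on the surface side, and Plcb3, a phospholipase C, on the crypt side at 0.33 (SE 0.112). Adjusted p of the 25 genes ran from 4.60e-10 to 0.0251 by edgeR. The wide share of genes called in this comparison (45.7%) applies to them as well.

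**Figure D4:**
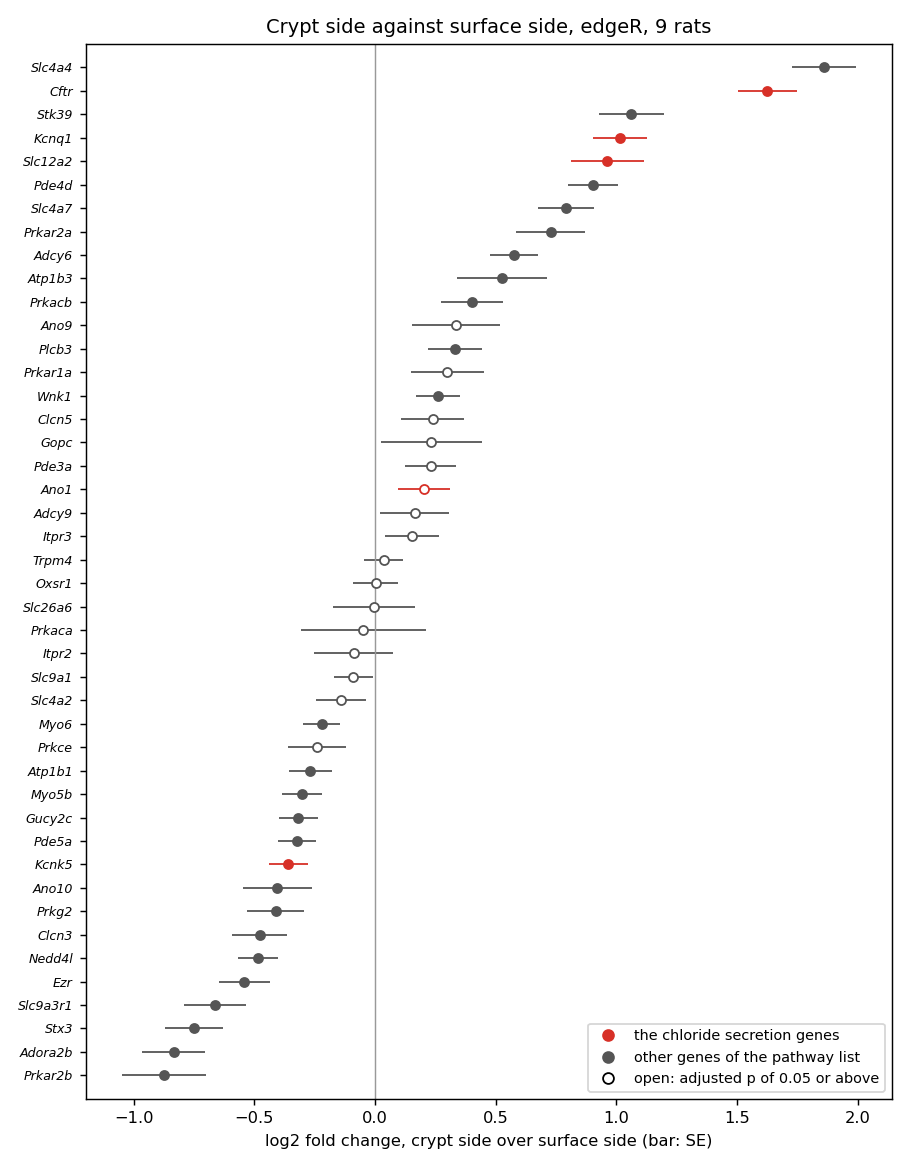
Log2 fold change of the crypt side over the surface side for the genes tested that are reported here, with the SE as a bar; filled points have an adjusted p below 0.05 by edgeR, and red points are the chloride secretion genes. Cftr at 1.63 stands next to Slc4a4 at 1.86 at one end, while Kcnk5 at -0.36 lies among genes higher on the surface side.

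The genes were also set against Cftr nucleus by nucleus. In the 6 rats with at least 50 enterocyte nuclei that held a Cftr UMI, those nuclei carried more Kcnq1 than the rest in 6 of 6 rats, with a median of 3.79 UMIs per 10000 (3.34 to 5.85) against 1.71 (1.15 to 2.84). Slc12a2 was higher in 6 of 6 rats too, at a median of 0.910 (0.498 to 1.54) against 0.375 (0.261 to 0.985), as was Kcne3, at 0.253 (0.120 to 0.506) against 0.0599 (0.0540 to 0.125), on 71 UMIs in the Cftr nuclei. Kcnk5 was lower in 5 of 6 rats, at a median of 5.21 (4.18 to 8.74) against 5.95 (4.54 to 9.23). Ano1 was higher in 3 rats and lower in 3. The Cftr nuclei were shallower than the rest in 5 of these 6 rats. No test was made, because nuclei of a rat are not replicates and share its library.

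Across the 9 rats, the genes whose log2 level was most like that of Cftr, among 9423 compared, were Aven (Pearson's r = 0.96), Tmem246 (0.95) and Hus1 (0.95). Kcne3 ranked 23rd at 0.90, Slc12a2 stood at 0.44, Kcnq1 at 0.016, Ano1 at -0.40 and Kcnk5 at -0.65. Most like Kcnk5 were AABR07065498.1 (0.96), Dusp5 (0.96) and Myo7b (0.96). Of the 6 genes Ano1 was nearest to it, at 0.64, and Kcnq1, Kcne3 and Slc12a2 stood at -0.37, -0.46 and -0.49. These values describe 9 points that fall into 3 treatments and share libraries of unequal depth, and they carry no test.

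T cell nuclei of the same rats were used as a background for these genes, and whether T cells express them was not tested. In a blocked edgeR fit over the 9 rats 1769 of 5194 genes were called (34.1%; 20.7% higher and 13.3% lower in enterocytes). Ano1 was higher in enterocyte nuclei in 9 of 9 rats, at a median of 6.92 UMIs per 10000 (5.21 to 9.18) against 2.29 (0.791 to 4.33), a log2 fold change of 1.96 (SE 0.311, adjusted p = 4.76e-05 by edgeR), and 2.36 (SE 0.228) without GR23. Kcnk5 was higher in 8 of 9 rats, at 6.60 (4.59 to 13.02) against 3.43 (2.90 to 11.2), a fold change of 0.89 (SE 0.309, adjusted p = 0.0290 by edgeR). That call was lost when any of 6 single rats was left out (adjusted p up to 0.0898), and with nuclei of at least 500 genes only (0.72, adjusted p = 0.0706). The exception was rat GR23, whose nuclei labelled T cell held most Kcnk5, and without it the fold change was 1.21 (SE 0.203, adjusted p = 1.20e-08, in 8 of 8 rats).

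Slc12a2 went the other way, lower in enterocyte than in T cell nuclei. Its median was 0.521 in enterocyte nuclei (0.288 to 1.11) and 2.98 in T cell nuclei (0 to 4.62), a fold change of -1.74 (SE 0.392, adjusted p = 0.00142 by edgeR), with 6 of 9 rats higher in T cells. Rats GR13 and GR44 had no Slc12a2 UMI in their 19 and 35 T cell nuclei, which allows up to 3.72 and 1.47 UMIs per 10000. Without GR23 the value was -2.14 (SE 0.230), and in the thinned nuclei it was -1.11 and no longer a call (adjusted p = 0.0606). Cftr and Kcnq1 did not stand above the T cell nuclei. Cftr had a median of 0.596 in enterocyte nuclei (0.389 to 3.41) and 1.53 in T cell nuclei (0 to 5.59), a fold change of -0.58 (SE 0.367, adjusted p = 0.238 by edgeR). Leaving out GR23 made it a call, lower in enterocytes, at -1.01 (SE 0.232, adjusted p = 4.87e-05), in a fit with 54.5% of genes called (31.2% higher and 23.3% lower in enterocytes). Cftr was called in 2 of 16 alternatives, this one included, and lower in enterocytes both times. Thinning turned it to 0.94 (SE 0.486, adjusted p = 0.174). Kcnq1 was at -0.050 (SE 0.300, adjusted p = 0.927) and changed sign between settings, with -0.30 (SE 0.214) without GR23. Kcne3 had 16 UMIs in all T cell nuclei, 5 of them in GR23, and was tested only without the low-count filter, at -0.31 (SE 0.555, adjusted p = 0.741 by edgeR).

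**Figure D5:**
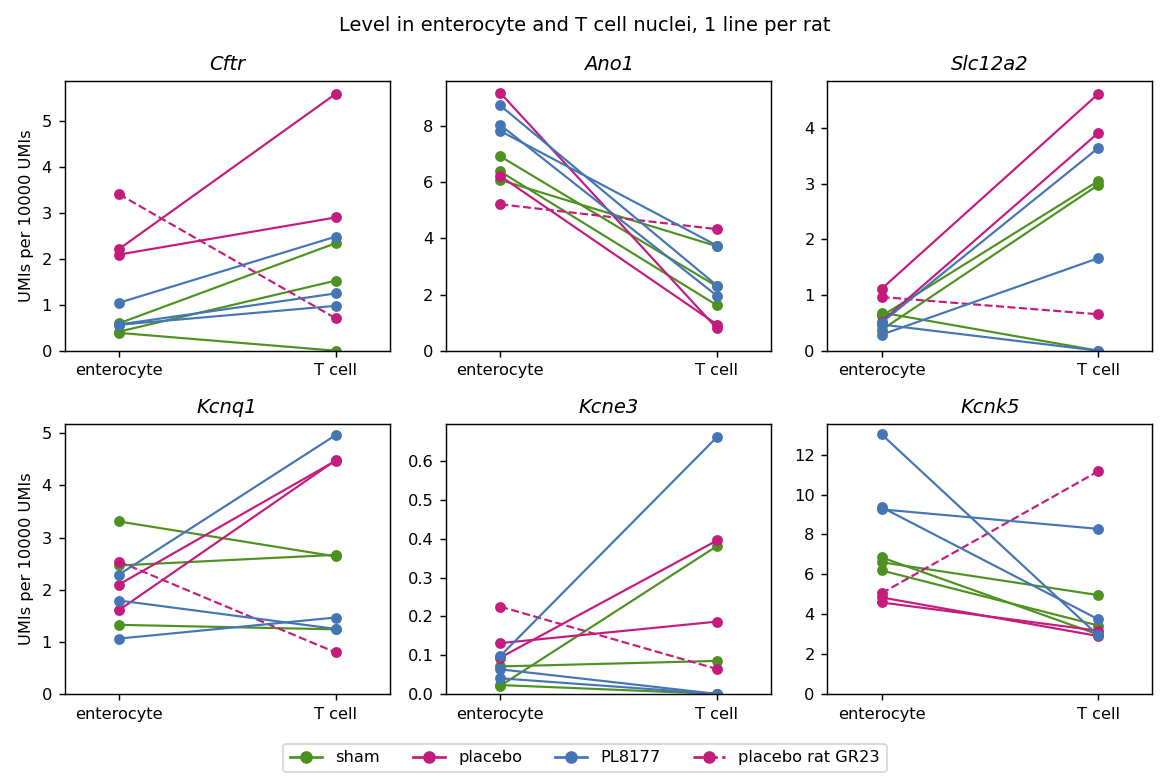
Level of each gene, in UMIs per 10000 UMIs, in enterocyte and T cell nuclei of the same rat, with 1 line per rat and a dashed line for placebo rat GR23. All 9 lines of Ano1 fall towards the T cell nuclei, and 6 of the 9 lines of Slc12a2 rise.

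Without GR23, 57 of the 333 T cell nuclei held a Cftr UMI, 21 of them in sham rat GR12, whose T cell nuclei were the deepest. They were therefore compared within the 3 rats with at least 10 such nuclei, GR12, GR24 and GR43. Their median depth was 4238, 1476 and 1765 UMIs in these rats, against 1709, 510 and 735 in the other T cell nuclei of the same rat. T cell markers summed to 41.8, 30.5 and 12.3 UMIs per 10000 against 74.2, 60.7 and 32.6, lower in each rat, and crypt markers to 29.6, 25.5 and 18.5 against 10.5, 11.7 and 13.4, higher in each rat. Cell cycle genes, which are part of the crypt list, made up 20.2, 15.5 and 6.58 of the crypt marker sums, against 4.55, 5.94 and 5.00. Kcnq1 was higher in each rat too, at 4.03, 8.19 and 6.17 against 0.892, 2.97 and 3.95, and Slc12a2 in GR12 and GR24 but not in GR43. Pooled over the rats without GR23, enterocyte markers summed to 28.1 UMIs per 10000 in the T cell nuclei with a Cftr UMI and 33.7 in the others. No test was made on these nuclei. What these nuclei are was not tested. In nuclei of the T cell tables kept only for T cell markers, also without GR23, Cftr was at -0.43 (SE 0.292, adjusted p = 0.214 by edgeR), Slc12a2 at -1.96 (SE 0.274), Ano1 at 3.73 (SE 0.327) and Kcnk5 at 1.84 (SE 0.261), the last 3 called in a fit with 53.8% of genes called (40.1% higher and 13.6% lower in enterocytes). With GR23 kept the 4 values were -0.52, -2.17, 3.41 and 1.54.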

How the data were processed

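Per the labels and the study's methods, UMI counting by the authors used Cell Ranger 6.0.1 with introns included and rat genome Rnor 6 (annotation release 97). CellBender removed background and Seurat 4.0.3 was used to type the clusters. They deposited whole UMI counts in 6 tables (enterocytes and T cells of 3 treatments), for nuclei that passed minimum 200 genes and maximum 5% mitochondrial reads. The T cell table of placebo breaks off within a gene, so comparisons of cell types used 15108 genes. The quasi-likelihood test of edgeR 4.0.16 (R 4.3.3) was run on counts summed per rat, after filterByExpr and TMM scaling, with Benjamini-Hochberg adjustment over all genes tested and calls below 0.05. Treatments shared 1 fit. Sides and cell types were compared with the rat as a block, since both come from the same rat, and marker genes of the split were left out of the counts of calls. SEs are the log2 fold change divided by the square root of F.

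The members and the gene lists were chosen with earlier results of these data known. Genes named are all members, pathway genes called (otherwise the 3 largest and 3 smallest, of which a selection is printed) and the 3 most like Cftr and Kcnk5. The values of 1 gene counted in the pathway list are not reported here. Alternatives were DESeq2 1.42.0, dropping the low-count filter, leaving out each rat, at least 500 genes per nucleus, thinning to 300 UMIs (which left out 252 sham, 103 placebo and 207 PL8177 enterocyte nuclei, and 12, 44 and 7 T cell nuclei), other marker splits, single sides and Scrublet calls left out. The split into 3 parts and the T cell marker nuclei were added after the data were seen. Scrublet (scanpy 1.11.5) called 48 of 9800 nuclei, or 0.490%. How many of the true doublets it caught was not checked, and the called nuclei were kept in the main results. The edgeR fits were tested on simulated data. Python 3.11.15, numpy 2.4.6, scipy 1.17.1, pandas 2.3.3 and matplotlib 3.10.9 were used for the rest. Enterocyte depth, 319125 to 4123319 UMIs per rat, sets the precision of low genes: 3 UMIs correspond to 0.00728 to 0.0940 per 10000, beside Cftr levels of 0.379 to 3.32.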

Additional observations from a re-analysis of the deposited data

How the results depend on the processing

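Of 357 tested values of the members recomputed under an alternative, 326 kept their direction and side of the threshold, 17 changed direction, 9 lost a call and 5 gained one. The 186 recomputed differences from placebo carry no test, so gained or lost calls were not counted for them; 178 moved by less than the spread between rats and 8 by more, and 8 changed sign, all of Ano1 or Kcnq1. Cftr, Slc12a2 and Kcnq1 stayed called higher on the crypt side in each of the 18 alternatives that tested them (log2 fold changes of 1.43 to 3.60, 0.77 to 1.44 and 0.82 to 2.73), and Kcnk5 stayed called lower there in 18 of 19. Among these alternatives is the split into 3 parts, with its lowest part set in place of the crypt side. The cause of the changes below was not tested, except that thinning leaves fewer genes to test. For PL8177 against sham, 4 genes were called by DESeq2, 10 with no filter and 0 to 2 with a rat left out. For sham against placebo these counts were 107, 51 and 0 to 8, with 2 in thinned nuclei; for PL8177 against placebo they were 63, 8 and 0. The count for crypt against surface side was 130 in thinned nuclei and 1733 to 3117 with a rat left out (1733 without GR43); without the low-count filter 1333 genes were higher and 2346 lower there, beside 1308 and 1322 with it, and the interaction with PL8177 gave 1 in thinned nuclei. Enterocytes against T cells gave 3881 with no filter, 494 in thinned nuclei and 1160 to 2797 with a rat left out (1160 without GR12, 2797 without GR23).

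Among the tested values, directions turned only in those that were not called. In PL8177 against sham, Slc12a2 went to 0.0099 in crypt side nuclei and Kcnq1 to 0.054 in thinned nuclei. In the interaction, Cftr went to -0.12 with the crypt list without cell cycle genes and ranged from -0.014 to 0.41 with a rat left out, Kcnq1 ranged from -0.15 to 0.26, and Kcnk5 from -0.13 to 0.091, with 0.14 without cell cycle genes and 0.037 with the surface list without Slc26a3. Against T cells, Cftr went to 0.94 in thinned nuclei. Kcnq1 went to 0.49 with no filter, 0.74 in thinned nuclei, 0.33 in T cell marker nuclei and 0.60 in those without GR23, and ranged from -0.30 to 0.16 with a rat left out. No paired analysis was possible because the names of the nuclei carry no replicate number that would pair rats across treatments. Kcne3, at 1 to 50 UMIs per rat, is the gene that depth limits most.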
